A study of Mus musculus with 6 samples.

Results

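Several proteins act around the release of sister chromatids and 3 of their genes were followed in liver RNA: securin (gene Pttg1), separase (gene Espl1) and the securin-binding protein PTTG1IP (gene Pttg1ip). They are 3 of the 55573 genes in the deposited table, taken by gene symbol. FPKM, the unit of the table, are fragments scaled by exon length and by the size of the library, and 2 of the 3 genes had a mean FPKM of at least 1. The set was chosen by measured values, namely the FPKM of Pttg1 in these same libraries, which was much lower in those labelled p21TKO. The difference between the groups is therefore described for the 3 genes and not tested.

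Securin binds separase and keeps this protease inactive until all chromosomes are attached to the spindle. The anaphase-promoting complex, a ubiquitin ligase, then marks securin for destruction, and the freed separase cuts the cohesin rings that hold sister chromatids together. PTTG1IP is a membrane glycoprotein that binds securin and helps it enter the nucleus. Securin and separase are genes of dividing cells, and most hepatocytes of an adult liver are not dividing.

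All 6 libraries came from liver of generation 3 mice on normal feed that lack the telomerase RNA gene mTR (Terc) and the RecQ helicase gene Wrn. The 3 DKO libraries (mTR-/-Wrn-/-) are the controls. The 3 p21TKO libraries (p21-/-mTR-/-Wrn-/-) lack p21 (Cdkn1a), an inhibitor of cyclin-dependent kinases, as well, and the study asked which pathways differ after its loss. The sex and age of the mice are not stated, apart from an unexplained "2M" in the sample titles. Nothing in the labels says that replicates are separate animals, so p-values measure only the spread between these libraries. No group with intact mTR and Wrn was analysed here.

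The FPKM denominators were 19363284 to 27061290 reads per library, and 18260 to 19523 genes were above 0. Hepatocyte markers were at high levels in all 6 libraries, with Alb, the serum albumin gene, at 25630 ± 1140 FPKM in DKO against 32080 ± 5170 in p21TKO (SD, n = 3 each). Cdkn1a stood at 0.405 to 1.79 FPKM in DKO and at 1.41 to 11.05 FPKM in p21TKO, so its transcripts were not lower in the libraries labelled as lacking it. Wrn had 36 to 48 reads in every library and Terc was at 0 in all. The deleted parts of these genes are not given in the sources used here, so the values do not check the genotypes, and every direction below rests on the labels. Y-linked transcripts were found in DKO replicates 2 and 3 and in p21TKO replicate 1, and in no other library.

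Pttg1 (ENSMUSG00000020415) lies on chromosome 11 at 43420250 to 43426251, minus strand, in GRCm38. Its level was 9.14, 13.1 and 10.1 FPKM in DKO replicates 1 to 3, from 439, 563 and 449 reads. In p21TKO replicates 1 to 3 it was 1.91, 0.414 and 0.406 FPKM, from 74, 19 and 22 reads. Every DKO library was above every p21TKO library, and the lowest DKO value was well above the highest p21TKO value. Among the p21TKO libraries, replicate 1 was higher than the other two by more than counting error, with 95% exact Poisson intervals of 1.5 to 2.4, 0.249 to 0.646 and 0.255 to 0.615 FPKM.

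The mean level of Pttg1 was 10.8 ± 2.06 FPKM in DKO against 0.91 ± 0.866 in p21TKO (SD, n = 3 each), an 11.8-fold difference of the means. The fold depends on p21TKO replicate 1: without it the p21TKO mean was 0.41 FPKM and the fold 26.3, while leaving out any other library gave 9.27 to 12.7. On the log2(FPKM + 1) scale, which understates differences of low values, p21TKO minus DKO was -2.70 (SE 0.32). Among all genes tested, 15.4% also had groups that did not overlap, and 0.0734% were called by limma at an adjusted p under 0.05; both shares are given as background only. Of the 1566 Pttg1 reads in the 6 libraries, 1451 came from DKO, and DKO held 49.4% of all reads in the denominators. The counting intervals above cover counting error only. Ranked by mean level among the genes above 0 in each group, Pttg1 stood at percentile 87.4 in DKO and 55.2 in p21TKO. In bulk liver, fewer cells that express Pttg1 and less Pttg1 RNA per cell cannot be told apart.

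**Figure D1:**
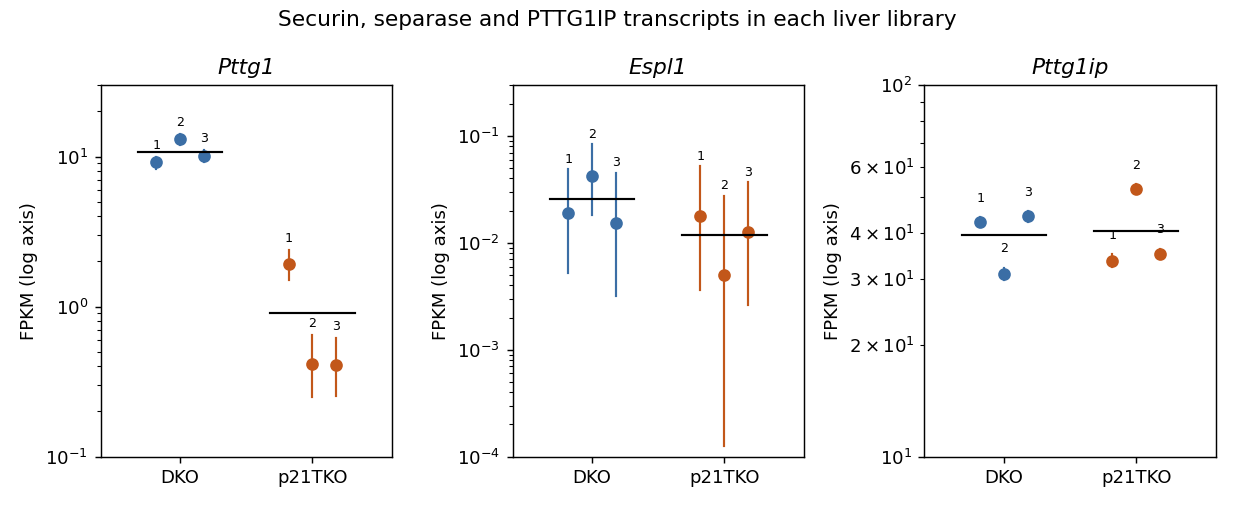
FPKM of Pttg1, Espl1 and Pttg1ip in each library, with DKO and p21TKO side by side in every panel. Points are libraries labelled with their replicate number, vertical bars are 95% Poisson counting intervals and black lines are group means; Pttg1 has no overlap between 9.14 to 13.1 FPKM in DKO and 0.406 to 1.91 FPKM in p21TKO, while the groups overlap for Espl1 and Pttg1ip.

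Since the groups of Pttg1 did not overlap, any subset of the libraries has the same direction, and the values by subset describe its size only. With Y-linked transcripts, the mean was 11.6 FPKM in the 2 DKO libraries and the level was 1.91 FPKM in the 1 p21TKO library, a log2 difference of -2.10. Without them, the 1 DKO library stood at 9.14 FPKM and the 2 p21TKO libraries averaged 0.41 FPKM, a log2 difference of -2.85. Leaving out p21TKO replicate 1, the highest of its group, gave -3.05. One arm of each subset by Y-linked transcripts is a lone library.

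Espl1 (ENSMUSG00000058290), the gene for separase, lies on chromosome 15 at 102296266 to 102324357, plus strand. It was near the detection limit in every library. DKO replicates 1 to 3 held 0.019, 0.0425 and 0.0154 FPKM, from 4, 8 and 3 reads. The p21TKO replicates held 0.0177, 0.00498 and 0.0127 FPKM, from 3, 1 and 3 reads. The groups overlapped, since p21TKO replicate 1 was above DKO replicate 3.

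The group means of Espl1 were 0.0257 ± 0.0147 FPKM and 0.0118 ± 0.00641 FPKM (SD, n = 3 each), and the difference on the log2(FPKM + 1) scale was -0.02. Of its 22 reads, 15 came from DKO, and the 95% Poisson intervals of all 6 libraries overlapped. A difference in Espl1 was not detectable at this depth. The gene failed the filter of a mean FPKM of at least 1 and did not enter the fit across genes.

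Pttg1ip (ENSMUSG00000009291) lies on chromosome 10 at 77581720 to 77598732, plus strand, and was the most abundant of the 3 genes. It stood at 42.8, 31.0 and 44.3 FPKM in DKO replicates 1 to 3, from 3985, 2586 and 3816 reads. In p21TKO it stood at 33.7, 52.6 and 35.1 FPKM, from 2531, 4679 and 3683 reads. The groups overlapped: a DKO library was the lowest and a p21TKO library the highest. The means were 39.4 ± 7.28 FPKM and 40.5 ± 10.5 FPKM (SD, n = 3 each). On the log2 scale they differed by 0.03 (SE 0.27), which was smaller than the spread between replicates.

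Per exon length, every library had the same order, with Pttg1ip above Pttg1 and Pttg1 above Espl1. The ratio of Pttg1ip to Pttg1 FPKM was 4.68, 2.37 and 4.38 in DKO replicates 1 to 3. In p21TKO it was 17.6, 127 and 86.4, a wider gap that restates the low Pttg1 level, since Pttg1ip hardly differed. The ratio of Pttg1 to Espl1 was 480, 308 and 655 in DKO and 108, 83.1 and 32.1 in p21TKO, with the Espl1 term resting on 1 to 8 reads. Securin transcripts thus exceeded separase transcripts per kilobase in every library of both groups.

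The sequence before the start of each gene was examined because the title of the study names the DREAM and MMB complexes, regulators of cell cycle genes. MMB and DREAM bind the CHR element TTTGAA, often next to a CCAAT box, and E2F factors bind sites such as TTCCCGC. These letters were searched on both strands in the 250 bases before the RefSeq start (GRCm38.p6), each motif on its own, so matches of different motifs could overlap. Among 32851 such windows, 16.0% held TTTGAA, 33.8% held CCAAT and 3.82% held TTCCCGC. The Espl1 window held TTTGAA 27 bases before the start and CCAAT, as ATTGG on this strand, 44 bases before it. The Pttg1 and Pttg1ip windows held none of the 3, which says only that these letters are absent there. The Pttg1 window lies wholly inside the gene as GENCODE M21 annotates it, which starts at 43426251 on the minus strand. Sequence before that start was not searched.

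Shown next are 30 bases around a TTTGAA match in Espl1 and in 2 other cell cycle genes. These are Cdk1, the mitotic kinase, and Top2a, a topoisomerase that untangles sister DNA. Genes and matches were chosen after the matches were seen, because ATTGG lies as close by. Which match, if any, acts as a CHR was not tested. Capitals mark ATTGG and TTTGAA, and each sequence reads 5′ to 3′ on the gene's strand.
Espl1 (chr15:102296248-102296277, plus strand): gATTGGtcactagggataTTTGAAaggagg
Cdk1 (chr10:69352972-69353001, minus strand): tcagctctgATTGGctccTTTGAAcgtcta
Top2a (chr11:99024357-99024386, minus strand): caattgctATTGGtccatTTTGAAgattct
In all 3 stretches ATTGG lies upstream of TTTGAA. This order follows largely from the choice, since sites with ATTGG close by were taken and most of each stretch lies before TTTGAA. The TTTGAA shown lies 71 bases before the RefSeq start in Cdk1 and 179 bases before it in Top2a. Each of these 2 windows holds a further match nearer the start, with no ATTGG beside it: TTTGAA 15 bases before the start in Cdk1, and TTCAAA, the reverse letters, 23 bases before it in Top2a.

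Longer stretches outside annotated exons are given for the genes of the inhibitor and the protease. In Pttg1, 195 of the 250 bases are exonic in GENCODE M21 because the RefSeq start at 43425981 lies inside the GENCODE gene, and the remaining 55 bases hold no capitals. In Espl1, 223 bases lie before the GENCODE gene, and capitals mark ATTGG. The TTTGAA of Espl1 lies in an annotated GENCODE exon and is therefore not part of this stretch.
Pttg1 (chr11:43426119-43426173, minus strand): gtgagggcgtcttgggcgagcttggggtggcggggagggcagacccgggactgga
Espl1 (chr15:102296043-102296265, plus strand): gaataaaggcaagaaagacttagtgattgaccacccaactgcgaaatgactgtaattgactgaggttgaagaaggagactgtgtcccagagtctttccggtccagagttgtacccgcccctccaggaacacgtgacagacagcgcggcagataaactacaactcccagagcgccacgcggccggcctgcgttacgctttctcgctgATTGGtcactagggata
Of the 23 genes of the G2 and mitosis list described next that had a window, 8 held TTTGAA, 20 held CCAAT and 0 held TTCCCGC. Over 27025 genes with a window the shares were 18.3%, 37.5% and 4.38%. These matches are descriptions of letters, and binding was not measured here.

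Genes of G2 and mitosis are the natural comparison for Pttg1, since dividing cells use them in the same phase of the cell cycle. Of 29 such genes other than the members, 27 had a mean FPKM under 1 and 18 had a mean under 0.1. Mki67, a proliferation marker, held 0.0268 to 0.124 FPKM in DKO and 0.0441 to 0.0565 FPKM in p21TKO. Cdk1 held 0.0638 to 0.443 FPKM in DKO and 0.115 to 0.241 FPKM in p21TKO. The groups of these 2 genes overlapped. Of the 29 genes, 2 had groups that did not overlap, against 15.4% of all genes tested, so the 2 do not stand out from that background. Both were higher in p21TKO at low counts, and most of the 29 were under the filter that the tested genes passed. Foxm1, a transcription factor of G2 genes, had 5, 3 and 5 reads in DKO against 10, 17 and 19 in p21TKO. Kif23, a kinesin of cell division, had 3, 3 and 4 reads in DKO against 11, 10 and 12 in p21TKO. All 4 of these genes were at low levels in both groups.

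The median of the 29 genes was 0.106, 0.0789 and 0.0274 FPKM in DKO replicates 1 to 3 and 0.0719, 0.0559 and 0.0395 FPKM in p21TKO replicates 1 to 3. In the same libraries Pttg1 was above 28 of the 29 in every DKO library. The exception was Cks2, a small subunit of cyclin-dependent kinases, at 18.6 ± 5.72 FPKM in DKO against 21.8 ± 2.32 in p21TKO (SD, n = 3 each; log2 difference 0.26). Aurka, the Aurora A kinase of spindle poles, was the other gene over 1, at 1.27 ± 0.308 and 1.18 ± 0.603 FPKM (SD, n = 3 each; log2 difference -0.09). In p21TKO, 1 of the 29 was above Pttg1 in replicate 1 and 2 were in replicates 2 and 3. Of the 2 that were tested, 1 was higher and 1 lower in p21TKO, and neither was called by limma or reached an unadjusted p under 0.05.

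**Figure D2:**
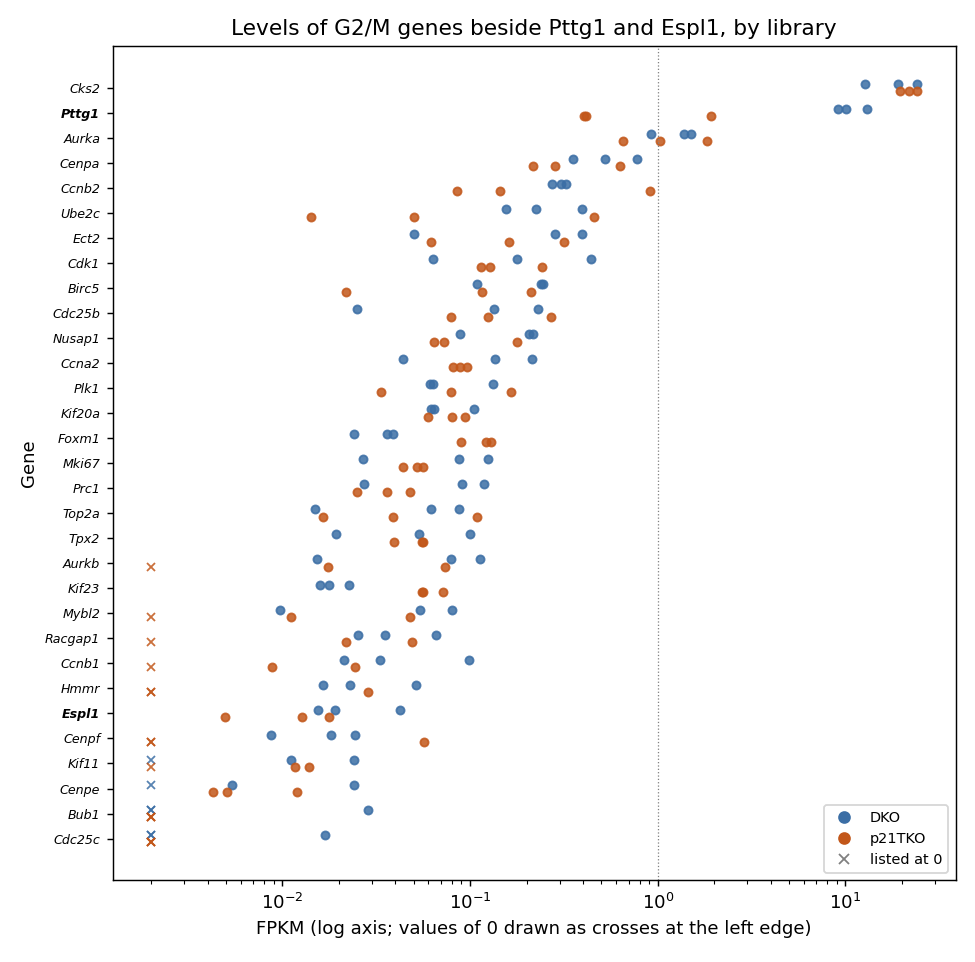
FPKM of Pttg1, Espl1 and the genes of the G2 and mitosis list in each of the 6 libraries, on a log axis; circles are libraries, crosses mark a value of 0 and the dotted line marks 1 FPKM. In DKO, Pttg1 lies above 28 of 29 genes of the list in each library, and in p21TKO it lies above 27 or 28.

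The partners of securin and separase were then taken as lists, written from knowledge of the pathway with earlier results of these data known. The 6 lists held 103 genes besides the members, of which 47 passed the filter. By limma, 0 of the 47 were called, 1 had an unadjusted p under 0.05, and 0 were called by limma voom on recovered reads. Of the 47, 24 were higher and 23 lower in p21TKO, with a median log2 difference of 0.03, and 6 (12.8%) had groups that did not overlap. Over all 9538 genes tested, 4783 were higher and 4743 lower with a median of 0.00, 0.0734% were called, and 15.4% had groups that did not overlap. The share in the lists was near that background. Without p21TKO replicate 1, limma called 1 of 46 tested genes of the lists and 506 of all 9579 genes tested.

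Regulators of separase other than securin include the cyclin B1 and Cdk1 complex, shugoshins, and the phosphatase PP2A. Of these 12 genes, 7 were tested and 0 called, with 5 higher, 2 lower and a median log2 difference of 0.12. Set, an inhibitor of PP2A, stood at 19.2 ± 2.42 FPKM in DKO against 22.4 ± 5.32 in p21TKO (SD, n = 3 each; log2 difference 0.19, limma adjusted p = 0.784). Ppp2r1a, the scaffold subunit of PP2A, was the gene of this list whose groups did not overlap, at 14.1, 17.8 and 15.5 FPKM in DKO and 17.9, 18.1 and 34.2 FPKM in p21TKO. The log2 difference was 0.48 (SE 0.29) and missed the threshold (limma adjusted p = 0.59), and the separation between the closest libraries was narrow. Ccnb1, cyclin B1, had 0 to 10 reads per library and Sgo2b was at 0 in all 6.

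Cohesin is the substrate of separase. Of 20 genes of its ring, loading and removal, 12 were tested and 0 called, with 3 higher, 9 lower and a median of -0.10. Rad21, the subunit that separase cuts, was at 11.1 ± 0.693 FPKM in DKO against 11.0 ± 1.36 in p21TKO (SD, n = 3 each; log2 difference -0.01, limma adjusted p = 0.982). Wapl, which opens the ring, was at 9.02 ± 1.05 and 7.41 ± 1.23 FPKM (log2 difference -0.26, limma adjusted p = 0.626). Stag2 (-0.49, limma adjusted p = 0.568) and Smc1a (-0.33, limma adjusted p = 0.58), both ring subunits, were lower on average with overlapping groups. Pds5a (log2 difference -0.11, limma adjusted p = 0.777) and Pds5b (-0.23, limma adjusted p = 0.59), which bind the ring and regulate its release, were the 2 tested genes of this list whose groups did not overlap, both lower in p21TKO. Rec8, another cohesin gene, failed the filter and was lower in every p21TKO library at low counts. It had 8, 22 and 7 reads in DKO against 0, 0 and 1 in p21TKO. Rad21 was almost equal in the 2 groups.

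The anaphase-promoting complex destroys securin as a protein. Of 20 genes of this complex and its helpers, 14 were tested and 0 called, with 9 higher, 5 lower and a median of 0.05. Anapc13, a small subunit, was the most abundant, at 16.6 ± 5.24 FPKM in DKO against 17.6 ± 8.62 in p21TKO (SD, n = 3 each; log2 difference 0.03). Cdc27, a scaffold subunit, was 3.67, 3.33 and 3.97 FPKM in DKO and 3.29, 2.86 and 2.21 FPKM in p21TKO. These groups did not overlap, though by a narrow margin, and the log2 difference of -0.31 missed the threshold (limma adjusted p = 0.563). Cdc20, the activator in mitosis, had 2 to 13 reads per library.

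The spindle checkpoint holds the anaphase-promoting complex off until chromosomes are attached. Of its 21 genes, 6 were tested and 0 called, with 4 higher, 2 lower and a median of 0.21. Mad1l1, which recruits Mad2 to unattached kinetochores, was 1.39, 1.85 and 1.89 FPKM in DKO and 2.93, 2.85 and 2.98 FPKM in p21TKO. All 3 p21TKO libraries were higher, opposite to Pttg1, and the log2 difference of 0.54 (SE 0.14) had the smallest p of the lists (0.00708) without passing adjustment (limma adjusted p = 0.515). Bub3, another checkpoint gene with groups that did not overlap, was 2.94 ± 0.163 FPKM in DKO against 3.83 ± 0.69 in p21TKO (SD, n = 3 each; log2 difference 0.29, limma adjusted p = 0.571). Bub1 had 3 reads in DKO replicate 1 and 0 in the other libraries.

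Genes linked to PTTG1IP, among them p53 and growth factors, made up the last list. Of 8 genes, 6 were tested and 0 called, with 2 higher, 4 lower and a median of -0.29. Igf1, a liver growth factor, was the most abundant, at 72.9 ± 16.5 FPKM in DKO against 52.6 ± 41.8 in p21TKO (SD, n = 3 each; log2 difference -0.71), and Slc5a5 was at 0 in all 6 libraries.

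**Figure D3:**
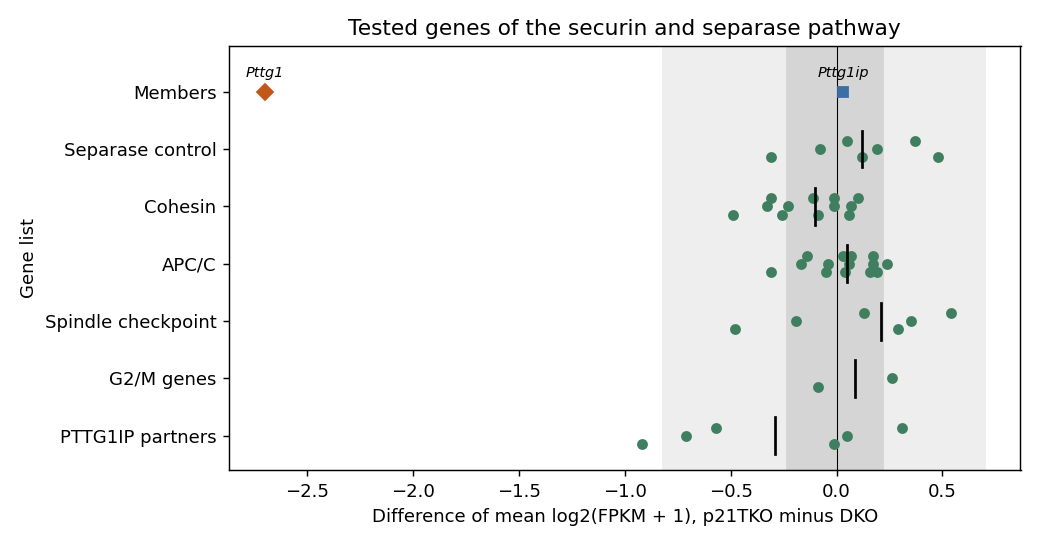
Log2 difference in FPKM + 1, p21TKO minus DKO, of the tested genes of the 6 lists and of Pttg1 and Pttg1ip. Dark and light grey bands span the 25th to 75th and the 5th to 95th percentile of all tested genes, and black bars are list medians. Pttg1 is at -2.70 and Pttg1ip at 0.03, and Mad1l1 of the spindle checkpoint list is at 0.54.

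The level of Pttg1 can be set against these lists within each library. In DKO replicates 1 to 3, 1, 0 and 2 of the 20 cohesin genes were above Pttg1, and in p21TKO 9, 13 and 14 were. For the anaphase-promoting complex the counts were 1, 1 and 1 of 20 in DKO and 10, 17 and 17 in p21TKO. For the spindle checkpoint they were 0, 0 and 0 of 21 in DKO and 6, 5 and 6 in p21TKO. Pttg1 was thus among the highest genes of the cohesin, anaphase-promoting complex and spindle checkpoint lists in DKO. Less so for the other lists: 8 of 12 regulators of separase and 5 of 8 genes linked to PTTG1IP were below it in every DKO library. In p21TKO it ranked in the middle or lower for cohesin and the anaphase-promoting complex, and remained above most genes of the spindle checkpoint and of the G2 and mitosis list. This restates the level of Pttg1 that chose it.

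The nearest tested coding genes on each side of Pttg1 differed little between the groups, while 2 other genes within 1 Mb, Adra1b and Ttc1, had larger differences in opposite directions. Slu7, a splicing factor gene 7.5 kb away, was 4.87, 3.10 and 4.84 FPKM in DKO and 3.18, 4.83 and 4.27 FPKM in p21TKO (log2 difference -0.04, limma adjusted p = 0.953). Pwwp2a, 255.7 kb away on the same side, differed by 0.07, and on the other side Ccng1 (2664.9 kb away) and Nudcd2 (2680.2 kb away) differed by -0.11 and -0.02. Of 17 tested genes within 5 Mb, 0 were called by limma and 2 had an unadjusted p under 0.05. The median was -0.02 and the range -1.04 (Adra1b, 354.4 kb away, with overlapping groups) to 0.70. Over all genes tested, 0.0734% were called and 15.4% had groups that did not overlap. Of the 17, 2 had groups that did not overlap, which does not stand out from that background. Those 2, named after their values were seen, were Ttc1 (309.3 kb away, 0.70, higher in p21TKO) and Ublcp1 (-0.53, lower).

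**Figure D4:**
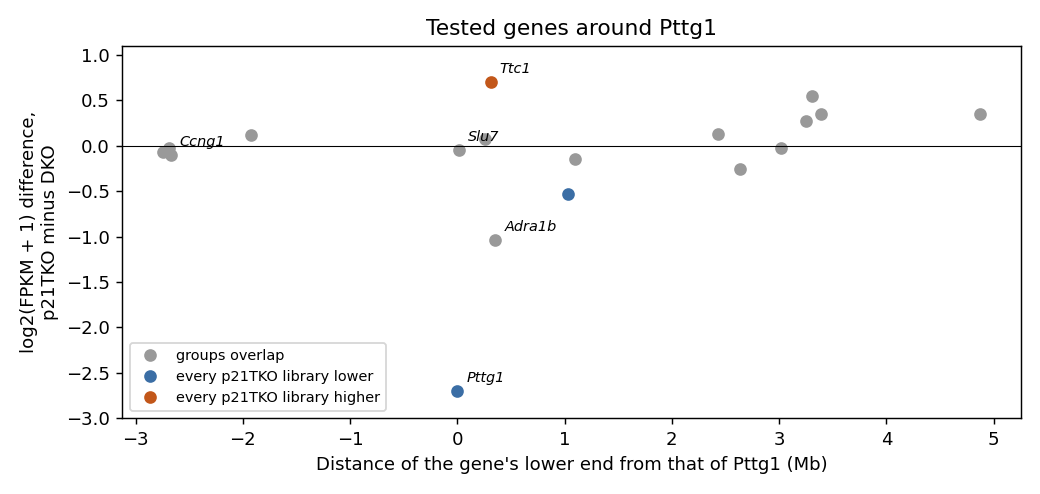
Log2 difference in FPKM + 1, p21TKO minus DKO, against the distance in Mb between the lower end of each tested gene and that of Pttg1, within 5 Mb; colours tell whether the groups overlap. Pttg1 lies at -2.70 and the 17 others between -1.04 (Adra1b) and 0.70 (Ttc1).

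Within 1 Mb of Espl1, limma called 0 of 27 tested genes, with 3 at an unadjusted p under 0.05. Within 1 Mb of Pttg1ip it called 0 of 21, with 2, and over all genes tested it called 0.0734%. Around Espl1, 5 of the 27 (18.5%, against 15.4% of all genes tested) had groups that did not overlap, 1 of them lower in p21TKO. Next to Espl1, Pfdn5, a prefoldin chaperone subunit gene 1.8 kb away, was 37.5 ± 8.54 FPKM in DKO against 51.3 ± 8.01 in p21TKO (SD, n = 3 each; log2 difference 0.45). Around Pttg1ip, 2 of the 21 (9.52%, against 15.4% of all genes tested) had groups that did not overlap, both higher in p21TKO. Sumo3, 7.4 kb away, was 11.8 ± 1.32 FPKM in DKO against 16.6 ± 2.33 in p21TKO (log2 difference 0.46, limma adjusted p = 0.523). Ube2g2, 23.5 kb away, was 11.1 ± 0.736 and 17.8 ± 4.16 FPKM (log2 difference 0.61, limma adjusted p = 0.523). Pttg1ip itself was at 0.03.

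Genes were also ranked by how closely they followed Pttg1 over the 6 libraries, by Pearson's r of log2(FPKM + 1). The 6 points share the split into groups, so r is a description with no p. Of 9537 genes, 228 had an r over 0.9 and 145 an r under -0.9. The closest were Stx16 (0.996), a syntaxin of vesicle fusion, then Sh2b3 (0.99), Mlycd (0.988), Ppp2r3a (0.986) and Ranbp9 (0.982). Stx16 was 5.20, 5.67 and 5.55 FPKM in DKO and 3.82, 3.00 and 2.86 FPKM in p21TKO, a smaller log2 difference of -0.62. Mlycd, malonyl-CoA decarboxylase, was 30.3 ± 0.571 FPKM in DKO against 10.1 ± 3.76 in p21TKO (SD, n = 3 each; log2 difference -1.55).

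The most opposite genes were Pfkfb1 (-0.992), Ap2b1 (-0.986), Pdia4 (-0.984), Tbc1d10b (-0.978) and Zfp954 (-0.977). Pdia4, a protein disulfide isomerase of the endoplasmic reticulum, was 48.7 ± 3.94 FPKM in DKO against 87.2 ± 5.08 in p21TKO (SD, n = 3 each; log2 difference 0.83). None of these 10 genes is in the securin, cohesin or mitosis lists. Within those lists r was -0.893 for Mad1l1 and 0.818 for Cdc27, and for Pttg1ip it was -0.22.

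Markers of other cells that a liver sample can hold also differed between libraries. The summed FPKM of 11 T, B and NK cell markers was 2.39, 3.18 and 2.28 in DKO and 1.38, 0.844 and 0.276 in p21TKO, in the same direction as Pttg1. None of these 11 genes passed the filter and none was at 0 in all 6 libraries, with 0 to 30 reads per gene and library. Of the 11, 8 were lower in every p21TKO library, and so were 6.88% of the 8063 genes with a mean FPKM in the range of these markers (0.0246 to 0.559). In each DKO library Pttg1 alone exceeded the sum of the 11. The sum of 11 neutrophil markers was 10.6, 29.0 and 12.5 in DKO and 24.9, 559 and 221 in p21TKO. Of these markers, 7 were tested and 0 called by limma. Some of the 7 passed the filter of a mean FPKM of at least 1 only through p21TKO libraries. Their direction was fixed by that filter and is not counted here.

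Of the other marker sums, those of stellate cells and hepatocytes were higher in every p21TKO library and the rest overlapped between the groups. Erythroid markers summed to 10.5, 31.0 and 42.3 FPKM in DKO and 41.0, 18.6 and 10.9 in p21TKO, early granulocyte markers to 7.33, 5.04 and 1.72 and to 1.32, 31.1 and 21.6. Kupffer cell markers summed to 27.9 to 68.3 FPKM in DKO and 18.6 to 171 in p21TKO, and endothelial markers to 9.01 to 15.2 and 6.29 to 56.4. Stellate cell markers summed to 17.5 to 29.1 FPKM in DKO and 31.8 to 41.5 in p21TKO, biliary markers to 7.0 to 18.5 and 6.91 to 27.3, and hepatocyte markers to 40400 to 50400 and 51300 to 60300. Spp1, the 1 biliary marker tested, made up most of the biliary sum and overlapped. Of the 6 biliary markers, 4 others were higher in every p21TKO library, and none of these 4 passed the filter. Among all genes tested, 15.4% did not overlap in either direction. That share covers only genes that passed the filter, and both directions, so it is not a like background for the 4. The hepatocyte sum was mostly Alb, and of 7 hepatocyte markers 4 were higher and 3 lower on average. In p21TKO replicates 1 to 3, Pttg1 was 1.91, 0.414 and 0.406 FPKM beside neutrophil sums of 24.9, 559 and 221 FPKM. In DKO replicates 1 to 3, Pttg1 was 9.14, 13.1 and 10.1 FPKM beside neutrophil sums of 10.6, 29.0 and 12.5 FPKM. The library with the lowest neutrophil sum thus had the highest Pttg1 in p21TKO but the lowest Pttg1 in DKO. The part of these cell types in the Pttg1 difference was not tested.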

How the data were processed

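Liver polyA RNA libraries of 3 DKO and 3 p21TKO replicates were compared, grouped by genotype label. The deposited values are FPKM. The submitters' processing notes list HISAT2 2.0.5, featureCounts 1.5.0-p3, CASAVA 1.8, DESeq2 1.20.0 and fastp, with no roles; which build the authors used stays unclear, since those notes name a human build while gene identifiers are mouse. Coordinates and exon lengths are from GENCODE M21 (GRCm38; 55480 genes matched by identifier, 93 not), promoter windows from RefSeq (GRCm38.p6). FPKM multiplied by exon length was a whole number of reads, within 0.02, for 99.3% of values in each library. Whether counting used strand is not stated.

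The 9538 genes whose FPKM averaged 1 or more entered a limma fit of log2(FPKM + 1) (version 3.58.1 in R 4.3.3, with trend; two-sided), adjusted by Benjamini-Hochberg with a threshold of 0.05, a script tested on simulated data. Limma voom on recovered reads was an alternative. Python 3.11.15, scipy 1.17.1, matplotlib 3.10.9 and BLAST 2.17.0 were used; BLAST (e-value 1e-20) found no near copy of Pttg1 or Pttg1ip, and short matches to Espl1. Gm49480, at 0 in all libraries, overlaps Espl1.

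The members and lists were chosen with earlier results of these data known. Named genes are the members, the targeted genes, in each pathway list the 2 most abundant and the 2 with the smallest p, in marker lists the 2 most abundant, the nearest 2 tested coding genes on each side, and the 5 most and least correlated; not all are described, and 1 gene that the rule takes is not reported here. Mki67, Cdk1, Foxm1, Kif23, Top2a, Ccnb1, Cdc20, Bub1, Pds5a, Pds5b, Rec8, Adra1b, Ttc1 and Ublcp1 lie outside this rule and were named after their values were seen, as were list genes at 0. Alternatives were the pseudocount, filter, scaling, trend, voom, a replicate block, a sex term and leaving out each library. One hepatocyte marker, Tf, is not analysed here.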

Additional observations from a re-analysis of the deposited data

How the results depend on the processing

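The Pttg1 difference of -2.70 was -3.74 with a pseudocount of 0.1 and -3.93 by limma voom on recovered reads, and lay between -3.05 and -2.52 when each library was left out. Scaling moved it to -2.71 (upper quartile) and -2.69 (TMM), and a sex term to -2.47. Espl1, at -0.02, was -0.16 with a pseudocount of 0.1 and -0.98 by voom, and -0.03 to -0.01 with a library left out. The voom fit changed scale, weights and offset together, and the cause was not tested. Pttg1ip, at 0.03, was -0.06 with the sex term and between -0.17 and 0.14 with a library left out, so its sign is not settled. The 7 calls among all genes became 0 with the replicate block (588 at an unadjusted p under 0.05), 1 by voom, 1 with no filter and 4 at a mean FPKM of at least 5, and 10 with a pseudocount of 0.1, 9 with the sex term, 8 with upper quartile scaling and 7 with TMM or without trend. Leaving out a library gave 1 to 506 calls, with 506 only without p21TKO replicate 1; the cause was not tested. Calls in the pathway lists stayed at 0, except for 0 to 1 with a library left out, where the 1 came without p21TKO replicate 1. With the replicate block Pttg1 was -2.70. Deviations of same-numbered libraries from their group means had correlations of -0.44, -0.49 and -0.07, none of them positive. With 3 libraries per group, these values cannot settle whether the numbers pair the samples. Depth limits Espl1, where 3 reads correspond to 0.0127 to 0.0177 FPKM in these libraries.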
